A study of Homo sapiens with 66 samples.

Results

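The genes described here are 8 members of the extrinsic apoptosis pathway, chosen by name from the 20167 genes counted in the series: the death receptors TNFRSF10A, TNFRSF10B and FAS, the decoy receptor TNFRSF10D, the adaptor FADD, the initiator caspases CASP8 and CASP10, and the caspase-8 regulator CFLAR. All 8 were found in the count table and were followed through all 66 RNA-seq libraries of the series. The libraries came from AMO1, an established human multiple myeloma line (36 libraries, 12 groups), and from L363-CFZr, a carfilzomib-resistant subline of the myeloma line L363 (30 libraries, 10 groups). Each group held 3 replicates. Cells of both lines were exposed for 6 h or 24 h to DMSO, the solvent control, or to 1 µM of NCP26, NCP22, halofuginone (HFG) or halofuginol, and AMO1 cells were also exposed to carfilzomib (CFZ), a proteasome inhibitor, at a dose the labels do not give. NCP26 and NCP22 are related inhibitors of human prolyl-tRNA synthetase (ProRS), the enzyme that charges tRNA with proline. HFG and halofuginol are febrifugine derivatives directed at the same enzyme, and halofuginol carries an alcohol in place of the ketone of HFG. Each line is 1 established culture, the parental L363 line was not analysed here and L363-CFZr cells received no CFZ, so nothing below bears on carfilzomib resistance itself.

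Death receptors of the TNF receptor superfamily carry an intracellular death domain. When TRAIL binds TNFRSF10A (TRAIL-R1, DR4) or TNFRSF10B (TRAIL-R2, DR5), or FAS ligand binds FAS, the receptor recruits FADD, which in turn recruits procaspase-8 or procaspase-10, and the caspases are activated in this complex. TNFRSF10D (TRAIL-R4, DcR2) binds TRAIL but has a truncated death domain, and CFLAR encodes the c-FLIP proteins, which compete with procaspase-8 for FADD. In many tumour lines TNFRSF10B is known as a gene induced through the transcription factor DDIT3 (CHOP) under endoplasmic reticulum or amino acid stress, while TNFRSF10B, TNFRSF10D and FAS are also known targets of p53.

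Library totals ran from 1666325 to 5761682 counts in AMO1 and from 2487872 to 6596543 in L363-CFZr cells. Levels are given as CPM, counts scaled to a common library size after TMM normalisation over all libraries. Fold changes and p-values are those of the quasi-likelihood F test in edgeR, adjusted by Benjamini-Hochberg over all genes tested, with a threshold of 0.05. A gene called in this way is written as higher, lower, risen or fallen. With 3 against 3 libraries an exact permutation test of 1 gene, two-sided, cannot go below p = 0.10, so the model across all genes was used. The study's methods state that replicates were biological unless otherwise specified. The labels do not say that they were separate cultures, and if they were not, p-values measure a spread that may be technical. All 9 plasma cell markers were present in every library (lowest value 17.8 CPM, CD38), and the markers of B cells, T cells, monocytes, stroma and epithelium stayed at or below 9.62 CPM (COL1A1), with PAX5, EPCAM and CD14 at no more than 1.48 CPM in any library. From the sample numbers in the labels, read with the S numbers in the column headers of the counts, the libraries fall into 3 sets. The sample numbers of AMO1 cells run without a break, so in that line the cut rests on where the S numbers repeat. Some treated groups were numbered in another set than their controls. In AMO1 cells this held for all 24 h treatments except CFZ replicate 1, and in L363-CFZr cells for HFG, halofuginol and NCP22 replicate 3 at 6 h. Whether the sets differ in handling is not stated. The 6 h material was stored frozen overnight before extraction whereas the 24 h material stayed on ice, so time and storage cannot be told apart. L363-CFZr DMSO 24 h replicate 2 and AMO1 CFZ 24 h replicate 2 stood apart from the other libraries of their groups, over all genes as well as in several of the 8. The former had correlations of log2 CPM of 0.938 and 0.940 with the others of its group, which had 0.987 with each other. For the latter these were 0.943 and 0.9385, against 0.977. Both libraries also enter the shares of all genes called in the comparisons that use their groups. Values of the 8 genes without these libraries are given where they end or add a call or move a value by over 1.5 times. Other genes are given with all libraries only, and how far they rest on these 2 libraries was not tested. To a lesser degree L363-CFZr NCP26 6 h replicate 2 differed from its group (0.982 and 0.979, against 0.990). Without it 3 members were still called for NCP26 against DMSO. AMO1 NCP26 6 h replicate 1 had 0.969 and 0.971, against 0.977, with 15581 genes detected against 13577 and 13636. Without this library 3 members were called as well. Gaps of like size set apart AMO1 HFG 24 h replicate 1 (0.968 and 0.970, against 0.979), L363-CFZr NCP26 24 h replicate 1 (0.980 and 0.977, against 0.987) and L363-CFZr halofuginol 24 h replicate 3 (0.977 and 0.976, against 0.986). In AMO1 cells a term for the library set is estimated from the CFZ 24 h libraries, so its values rest in part on CFZ replicate 2.

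In AMO1 cells NCP26 changed 3 of the 8 genes at 6 h, against 37.3% of all genes tested, and 6 of 8 at 24 h, against 60.7%. HFG altered 4 of 8 at 6 h (54.3% of all genes) and 6 of 8 at 24 h (59%). CFZ altered 2 of 8 at 6 h (26.9%) and 5 of 8 at 24 h (27%). At 6 h the share of members called was thus near that of all genes for each of these treatments, and the description that follows rests on which genes moved, in which direction and by how much. NCP22 changed 2 members at 6 h (13.5% of all genes) and halofuginol 1 (3.62%). At 24 h edgeR called 0 members for NCP22 (0% of all genes) and 0 for halofuginol (0.183%), and DESeq2 called 0 in both. At an unadjusted p under 0.05 there were 1 and 2 members, beside 638 of 10781 and 1129 of 10943 genes tested. In L363-CFZr cells 7 of the 8 genes had enough counts to be tested. NCP26 changed 3 of 7 at 6 h (18.8%) and 1 of 7 at 24 h (7.09%). HFG altered 3 of 7 at 6 h (54.5%) and 0 of 7 at 24 h (1.17%), where DESeq2 called 0. There 3 members had an unadjusted p under 0.05, beside 1735 of 10469 genes tested. Without DMSO replicate 2 at 24 h, 4 members were called for NCP26 and 4 for HFG. The share of all genes called without that library is not given here, so these counts have no background beside them. NCP22 changed 0 members at 6 h (0% of all genes) and 0 at 24 h (0%), and 0 by DESeq2 at both times. At an unadjusted p under 0.05 there were 2 and 0, beside 666 of 10235 and 213 of 10727 genes tested. Halofuginol changed 0 at 6 h (25.8%) and 0 at 24 h (0%), and 0 by DESeq2. At an unadjusted p under 0.05 there were 1 and 0, beside 4082 of 10519 and 410 of 10531 genes tested. Over all genes, log2 fold changes followed GC content most with L363-CFZr halofuginol (r = -0.72) and HFG (-0.57) at 6 h. Those libraries were numbered in another set than DMSO. AMO1 NCP22 and halofuginol at 6 h, within 1 set, had -0.51 and -0.47. What part of the shares called goes with GC content was not tested. Treatments of the same line and time share their 3 DMSO libraries, so their values are set side by side and their likeness is not tested.

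TNFRSF10B, the TRAIL receptor DR5, was the receptor with the largest increases. In AMO1 cells at 24 h it stood at 165, 188 and 167 CPM with DMSO and at 386, 348 and 367 CPM with NCP26, without overlap between the groups. This was a 2.11-fold rise (log2 fold change 1.08, SE 0.0555, adjusted p = 1.01e-16). As in all bulk RNA, a change in the share of cells that express a gene and a change in its RNA per cell cannot be told apart. At 6 h the same treatment gave 155, 173 and 168 CPM against 163, 156 and 157 CPM with DMSO, and the groups overlapped (log2 fold change 0.07, 95% interval -0.13 to 0.27, adjusted p = 0.593). HFG left TNFRSF10B at 194, 179.8 and 167 CPM at 24 h, which overlaps the DMSO libraries (log2 fold change 0.05, 95% interval -0.10 to 0.20). CFZ at 24 h gave 104, 105 and 95.1 CPM, below every DMSO library, a 1.69-fold fall (log2 fold change -0.75, adjusted p = 0.00175).

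L363-CFZr cells started from a lower level of TNFRSF10B, at 49.0, 49.4 and 44.2 CPM with DMSO at 6 h. NCP26 brought it to 137, 131 and 139.6 CPM (2.91-fold, log2 fold change 1.54, SE 0.105, adjusted p = 7e-06) and HFG to 149, 144 and 129 CPM (3.06-fold, log2 fold change 1.61, SE 0.0872, adjusted p = 2.72e-13). Thus in this line the receptor rose with both inhibitors by 6 h. At 24 h the DMSO libraries held 56.2, 63.4 and 51.8 CPM and the NCP26 libraries 151, 147 and 145 CPM (2.61-fold, log2 fold change 1.38, adjusted p = 0.00145). The HFG libraries at 24 h held 78.0, 82.6 and 77.0 CPM, above every DMSO library, yet the difference did not pass the threshold (log2 fold change 0.47, adjusted p = 0.131). Without DMSO replicate 2 it did (log2 fold change 0.55, adjusted p = 7.85e-05).

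Differences between these effects were tested as interactions. The NCP26 effect on TNFRSF10B at 6 h was larger in L363-CFZr than in AMO1 cells by 1.45 on the log2 scale (SE 0.126, adjusted p = 4.61e-06), and 2 members, TNFRSF10B and FAS, were called there against 2.71% of all genes. At 24 h the difference between the lines was 0.28 (95% interval -0.01 to 0.58, adjusted p = 0.251). There edgeR called 0 members against 5.41% of all genes, and DESeq2 called 0. At an unadjusted p under 0.05 there was 1 member (FADD), beside 2464 of 11239 genes tested. Without L363-CFZr DMSO 24 h replicate 2 the difference in TNFRSF10B was 0.35 (adjusted p = 0.0223), that in FADD -0.92 (adjusted p = 0.000898) and that in CASP10 0.47 (adjusted p = 0.00538). Within AMO1 cells the NCP26 effect was larger at 24 h than at 6 h by 1.00 (SE 0.109, adjusted p = 6.67e-06), where 5 members were called against 17.5% of all genes. The CFZ effect was lower at 24 h than at 6 h (difference -0.88, adjusted p = 0.000381), where 5 members were called against 19.6% of all genes. The comparison of the lines involves different library sets and cannot be separated from them. At 6 h the NCP26 and DMSO libraries of each line lay within 1 set, whereas at 24 h those of AMO1 cells lay in different sets.

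TNFRSF10A, the other TRAIL receptor with a death domain, varied less. AMO1 DMSO libraries at 24 h held 31.9, 35.6 and 33.8 CPM and NCP26 libraries 45.9, 41.02 and 44.9 CPM, all above the controls. The rise was 1.29-fold (log2 fold change 0.37, SE 0.104, adjusted p = 0.00293) and was the only call for this gene in the 18 comparisons with DMSO. With a term for the library set it was 0.58 with an adjusted p = 0.0863. In L363-CFZr cells the DMSO libraries held 53.6, 61.3 and 49.1 CPM at 6 h and 34.3, 33.2 and 36.2 CPM at 24 h. None of the treated groups was called against them. At 6 h, however, NCP26 (47.81, 40.44 and 45.3 CPM) and HFG (41.98, 43.52 and 48.5 CPM) lay below every DMSO library. The HFG difference had an unadjusted p under 0.05 in edgeR, with libraries numbered in another set than DMSO, and the NCP26 difference did not. The other treated groups of this line overlapped the DMSO libraries of the same time.

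TNFRSF10D, the decoy receptor, was called lower in 5 of the 10 comparisons with DMSO in AMO1 cells and higher in 0, and it was all but absent from L363-CFZr cells. In AMO1 cells at 6 h it stood at 41.3, 42.3 and 41.8 CPM with DMSO, at 8.98, 7.09 and 12.7 CPM with NCP26, and at 6.13, 6.40 and 7.66 CPM with HFG. The groups lie far apart, with no treated library above 12.7 CPM. The fall was 4.32-fold with NCP26 (log2 fold change -2.11, SE 0.183, adjusted p = 6.16e-06) and 5.85-fold with HFG (log2 fold change -2.55, SE 0.149, adjusted p = 2.23e-09). CFZ at 6 h gave 32.8, 22.5 and 27.3 CPM, a smaller fall of 1.53-fold (log2 fold change -0.61, adjusted p = 0.00196).

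By 24 h the DMSO libraries of AMO1 cells held 126, 128 and 115 CPM of TNFRSF10D, 2.94-fold more than at 6 h (log2 fold change 1.56, adjusted p = 1.33e-11, a comparison chosen after the values were seen, in which 4 members were called against 46.5% of all genes). The NCP26 libraries held 129, 112 and 118 CPM and overlapped the controls (log2 fold change -0.04, 95% interval -0.18 to 0.11). The HFG libraries held 32.6, 25.2 and 21.8 CPM and the CFZ libraries 27.3, 28.9 and 29.5 CPM, all far below the controls (log2 fold changes -2.25, adjusted p = 5.22e-12, and -2.08, adjusted p = 3.94e-05). The decoy receptor was therefore low with NCP26 at 6 h and overlapped the control libraries at 24 h, whereas with HFG it was low at both times. The NCP26 effect differed between the times by 2.07 (SE 0.184, adjusted p = 7.71e-07), and the HFG effect by 0.33 (95% interval -0.07 to 0.74, adjusted p = 0.193), where 2 members were called against 39.6% of all genes. Direct comparison of the compounds at 24 h gave 4.59-fold more TNFRSF10D with NCP26 than with HFG (log2 fold change 2.20, adjusted p = 3.87e-11), and 6 members were called there against 44.9% of all genes. At 6 h the difference between NCP26 and HFG was 0.47 (95% interval -0.10 to 1.03). There edgeR called 0 members against 0.26% of all genes, and DESeq2 called 0. At an unadjusted p under 0.05 there was 1 member (FAS), beside 1416 of 10749 genes tested.

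Over all 30 L363-CFZr libraries TNFRSF10D received 7 counts, in 4 libraries, with at most 2 in any library. Its level in AMO1 cells under DMSO was at least 148-fold higher at 6 h and at least 444-fold higher at 24 h, taking a floor of 3 counts over the 3 L363-CFZr DMSO libraries (0.282 and 0.277 CPM). No change with treatment could be measured in that line at this depth. These floors cover counting error only.

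Because ratios of counts within a library need no scaling, the balance of the receptor and its decoy was also taken per library in AMO1 cells. TNFRSF10B counts were 3.96, 3.68 and 3.75 times those of TNFRSF10D with DMSO at 6 h, against 17.2, 24.3 and 13.3 times with NCP26 and 27.9, 23.5 and 19.2 times with HFG. With CFZ at 6 h they were 4.89, 7.53 and 6.81 times. At 24 h the ratio was 1.31, 1.47 and 1.45 with DMSO, 3.0, 3.1 and 3.11 with NCP26, 5.95, 7.13 and 7.62 with HFG and 3.79, 3.64 and 3.22 with CFZ. The ratio lay above the DMSO libraries of the same time in every library of these groups, while the genes that set it differed. At 6 h, and with HFG and CFZ at 24 h, the decoy fell, and with NCP26 at 24 h the receptor rose. With CFZ at 24 h the receptor fell as well. With NCP22 the ratio ran from 3.84 to 4.33 at 6 h and from 1.36 to 1.91 at 24 h, and with halofuginol from 3.52 to 4.10 and from 1.24 to 1.45. The ratio is not corrected for gene length and is read only between groups.

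FAS, the receptor for FAS ligand, fell with HFG in AMO1 cells and rose with it in L363-CFZr cells at 6 h. In AMO1 cells at 24 h it stood at 42.5, 46.5 and 50.9 CPM with DMSO, at 68.7, 70.3 and 78.8 CPM with NCP26, at 32.6, 37.6 and 34.1 CPM with HFG and at 22.0, 19.6 and 18.2 CPM with CFZ. None of the treated groups overlapped the controls. FAS rose 1.53-fold with NCP26 (log2 fold change 0.62, adjusted p = 7.37e-07) and fell 2.3-fold with CFZ (log2 fold change -1.20, adjusted p = 0.000692) and 1.35-fold with HFG (log2 fold change -0.43, adjusted p = 0.00241). The HFG value at 24 h was -0.23 with a term for the library set (adjusted p = 0.56). At 6 h HFG gave 25.3, 22.1 and 27.1 CPM against 40.3, 42.7 and 40 CPM with DMSO (log2 fold change -0.67, adjusted p = 0.000252), within a library set, and NCP26 did not pass the threshold (log2 fold change -0.15, 95% interval -0.47 to 0.17), while with the offset for GC content its value was -0.41 (adjusted p = 0.0372).

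L363-CFZr cells had much less FAS, with 3.61, 3.07 and 3.86 CPM (11, 9 and 18 counts) under DMSO at 6 h. NCP26 gave 6.28, 10.9 and 8.88 CPM (31, 56 and 50 counts) and HFG 7.03, 9.56 and 9.62 CPM (32, 29 and 45 counts). These were rises of 2.47-fold (log2 fold change 1.31, SE 0.282, adjusted p = 0.0103) and 2.48-fold (log2 fold change 1.31, SE 0.269, adjusted p = 0.000253). The NCP26 call rests on few counts and had an adjusted p = 0.0532 without DMSO replicate 3, and the HFG value was 0.78 (adjusted p = 0.379) with a term for the library set. At 24 h neither was called, with log2 fold changes of 0.81 (adjusted p = 0.148) and 0.91 (adjusted p = 0.201). The effect on FAS was larger in L363-CFZr than in AMO1 cells by 1.43 for NCP26 at 6 h (adjusted p = 0.0179) and by 1.32 for HFG at 24 h (adjusted p = 0.00556), where 3 members were called against 16.9% of all genes. The NCP26 difference lost its call without any 1 of the 3 L363-CFZr DMSO 6 h libraries (adjusted p from 0.0546 to 0.0618).

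FADD, the adaptor shared by these receptors, rose in AMO1 cells with NCP26 and with HFG. At 24 h it stood at 25.3, 21.5 and 23.2 CPM with DMSO, at 41.9, 46.2 and 39.4 CPM with NCP26 and at 37.1, 38.02 and 32.8 CPM with HFG. All treated libraries lay above all controls, with rises of 1.83-fold (log2 fold change 0.87, SE 0.118, adjusted p = 1.75e-07) and 1.54-fold (log2 fold change 0.62, SE 0.129, adjusted p = 0.000406). At 6 h HFG gave 47.5, 44.3 and 38.3 CPM against 27.1, 28.7 and 33.6 CPM with DMSO (log2 fold change 0.56, adjusted p = 0.00191). NCP26 gave 37.5, 37.6 and 39.3 CPM (log2 fold change 0.37, adjusted p = 0.0481), a call that was lost when DMSO replicate 1 or 2 or NCP26 replicate 2 or 3 was left out (adjusted p from 0.086 to 0.164) and by DESeq2 (adjusted p = 0.133). CFZ gave 36.03, 22.1 and 22.1 CPM at 24 h, where only replicate 1 comes from the library set of the controls (log2 fold change 0.23, adjusted p = 0.447, and 0.64 within the set, adjusted p = 0.00509). In L363-CFZr cells no treatment passed the threshold for FADD, and log2 fold changes ran from 0.05 (HFG at 6 h) to 0.35 (HFG at 24 h) for the 4 comparisons of NCP26 and HFG with DMSO. At 24 h FADD in DMSO replicate 2 stood at 16.4 CPM against 28.6 and 30.8 CPM in the others, and without it the value for HFG was 0.14 (adjusted p = 0.552) and that for NCP26 -0.02 (adjusted p = 0.927).

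CASP8 and CASP10, the initiator caspases, fell in AMO1 cells with HFG and CFZ at 24 h and not with NCP26. CASP8 stood at 148, 161 and 139 CPM with DMSO, at 96.1, 90.9 and 97.0 CPM with HFG and at 102, 85.8 and 114 CPM with CFZ. The falls were 1.58-fold (log2 fold change -0.66, SE 0.0732, adjusted p = 4.15e-07) and 1.46-fold (log2 fold change -0.55, SE 0.125, adjusted p = 0.0139). The CFZ call was lost without DMSO replicate 1 or 2 (adjusted p = 0.0594 and 0.0752). With NCP26 at 24 h the CASP8 libraries held 175, 186 and 172 CPM, above the controls (log2 fold change 0.25, adjusted p = 0.0011, and 0.26 with an adjusted p = 0.2 with a term for the library set). At 6 h the HFG libraries held 132, 127 and 135 CPM of CASP8, below the DMSO libraries (145, 159 and 148 CPM), but were not called. CASP8 was called higher at 6 h with NCP22 (log2 fold change 0.30, adjusted p = 0.0115) and halofuginol (log2 fold change 0.27, adjusted p = 0.0379). Both calls ended with an offset for GC content (adjusted p = 0.151 and 0.202) and when some libraries were left out, namely DMSO replicate 1 or NCP22 replicate 2 for NCP22 (adjusted p = 0.0507 and 0.0562), and any but DMSO replicate 3 for halofuginol (adjusted p from 0.0694 to 0.181).

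CASP10 stood at 168, 178 and 161 CPM with DMSO in AMO1 cells at 24 h, at 86.0, 100.0 and 93.4 CPM with HFG and at 80.8, 133 and 79.6 CPM with CFZ, below every control. The falls were 1.81-fold (log2 fold change -0.86, SE 0.0723, adjusted p = 1.06e-08) and 1.7-fold (log2 fold change -0.76, SE 0.207, adjusted p = 0.0274). CFZ replicate 2 was the high library, and the CFZ call was lost when any other of the 6 libraries was left out (adjusted p from 0.0728 to 0.0999). NCP26 gave 149, 170.2 and 152 CPM, which overlapped the controls (log2 fold change -0.11, 95% interval -0.24 to 0.02), though without NCP26 replicate 2 the value was -0.17 (adjusted p = 0.0445). The DMSO level itself was higher at 24 h than at 6 h (112, 103 and 108 CPM), by 1.58-fold (log2 fold change 0.66, adjusted p = 3.47e-07). The HFG effect fell between 6 h and 24 h by 0.47 for CASP8 (adjusted p = 0.00119, and 0.0511 with a term for the library set) and by 0.96 for CASP10 (adjusted p = 1.27e-06) on the log2 scale, and the corresponding differences for CFZ were -0.64 (adjusted p = 0.00799) and -0.86 (adjusted p = 0.0144).

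In L363-CFZr cells neither caspase was called lower with any treatment. At 24 h CASP8 libraries held 79.9, 76.8 and 80.4 CPM with DMSO, 107, 109 and 105 CPM with NCP26 and 92.2, 110.4 and 105 CPM with HFG, and all treated libraries lay above all controls. The difference missed the threshold for NCP26 (log2 fold change 0.45, adjusted p = 0.0508) and for HFG (log2 fold change 0.37, adjusted p = 0.186). Without DMSO replicate 2 both passed (log2 fold changes 0.43, adjusted p = 0.00214, and 0.36, adjusted p = 0.00343). The HFG effect at 24 h was higher in L363-CFZr than in AMO1 cells by 1.02 for CASP8 (SE 0.132, adjusted p = 0.000304) and by 0.92 for CASP10 (SE 0.225, adjusted p = 0.0147). The difference in TNFRSF10B was 0.41 (adjusted p = 0.0763), and 0.51 without L363-CFZr DMSO replicate 2 (adjusted p = 0.00137). CASP10 ran from 61.2 to 99.9 CPM with DMSO at 24 h, where replicate 2 was the highest, and no treatment was called against DMSO with all libraries. Without replicate 2 CASP10 was called higher with NCP26 (log2 fold change 0.39, adjusted p = 0.00728) and with HFG (log2 fold change 0.32, adjusted p = 0.00998), against 0.14 and 0.06 with it.

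CFLAR, which encodes c-FLIP, was the member called most often, higher in 8 of the 18 comparisons with DMSO and lower in 0. In AMO1 cells at 6 h it stood at 177, 159 and 157 CPM with DMSO, at 228, 226 and 235 CPM with NCP26, at 205, 213 and 211 CPM with HFG and at 250.4, 229 and 230.0 CPM with CFZ. No treated library overlapped the controls. The rises were 1.4-fold with NCP26 (log2 fold change 0.49, SE 0.0962, adjusted p = 0.00185), 1.3-fold with HFG (log2 fold change 0.38, adjusted p = 0.000498) and 1.43-fold with CFZ (log2 fold change 0.51, adjusted p = 1.69e-05). NCP22 also gave a call at 6 h (log2 fold change 0.25, adjusted p = 0.0347), which ended with the GC offset (adjusted p = 0.164) and without DMSO replicate 2 or any 1 of the 3 NCP22 libraries (adjusted p from 0.0513 to 0.169).

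At 24 h AMO1 libraries held 209, 197 and 180.2 CPM of CFLAR with DMSO and 336, 331 and 305 CPM with NCP26 (1.66-fold, log2 fold change 0.73, SE 0.0564, adjusted p = 1.47e-12). HFG gave 252, 241 and 243 CPM (1.26-fold, log2 fold change 0.33, adjusted p = 0.000237). With a term for the library set these values were 0.47 (adjusted p = 0.0658) and 0.08 (adjusted p = 0.801). That term is estimated from the CFZ 24 h libraries, replicate 1 against replicates 2 and 3, and replicate 2 stood apart. The 24 h calls thus depend on how the sets are treated, by a term that rests in part on that library. The 6 h calls lie within 1 set. CFZ at 24 h gave 204, 297 and 184 CPM, with replicate 2 apart from the others, and was not called (log2 fold change 0.25, adjusted p = 0.364). Without that library the log2 fold change at 24 h was 0.01 (adjusted p = 0.946), and the CFZ effect on CFLAR was lower at 24 h than at 6 h (difference -0.52, adjusted p = 0.000766). In L363-CFZr cells at 6 h CFLAR stood at 94.6, 99.1 and 95.9 CPM with DMSO, at 152, 126 and 177 CPM with NCP26 and at 166, 172 and 169.7 CPM with HFG. The rises were 1.59-fold (log2 fold change 0.67, adjusted p = 0.00563) and 1.79-fold (log2 fold change 0.84, adjusted p = 6.04e-10), the latter 0.51 (adjusted p = 0.217) with a term for the library set. At 24 h DMSO gave 133, 259 and 151 CPM and NCP26 253, 245 and 237 CPM (log2 fold change 0.45, adjusted p = 0.318). Without DMSO replicate 2, the library at 259 CPM, the value was 0.80 (adjusted p = 2.9e-05). HFG gave 198, 166 and 176 CPM (log2 fold change -0.0016, adjusted p = 0.998), and 0.35 without that DMSO library (adjusted p = 0.000966).

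CFLAR counts relative to CASP8 counts in the same library were 1.22, 1.00 and 1.07 with DMSO in AMO1 cells at 6 h, 1.64, 1.52 and 1.88 with NCP26, 1.55, 1.68 and 1.56 with HFG and 1.57, 1.48 and 1.39 with CFZ. At 24 h they were 1.41, 1.23 and 1.29 with DMSO, 1.92, 1.78 and 1.77 with NCP26, 2.62, 2.65 and 2.51 with HFG and 1.99, 3.46 and 1.60 with CFZ. The ratio was thus above all controls in all libraries of these groups. It is not corrected for transcript length (14612 bases for CFLAR and 2659 for CASP8) and is read only between groups. In L363-CFZr cells at 6 h it was 1.15, 1.15 and 1.33 with DMSO, 1.89, 1.5 and 2.18 with NCP26 and 2.06, 2.17 and 1.86 with HFG. At 24 h it was 1.66, 3.37 and 1.87 with DMSO, 2.36, 2.24 and 2.25 with NCP26 and 2.15, 1.51 and 1.68 with HFG. The value of 3.37 is that of DMSO replicate 2, and without it the NCP26 libraries lay above the DMSO libraries, while the HFG libraries overlapped them.

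Promoter sequence is shown for CFLAR, the member called most often, and FAS, called lower in AMO1 and higher in L363-CFZr cells with HFG at 6 h. The L363-CFZr call rests on few counts and was lost with a term for the library set. Whether the HFG effect at 6 h differs between the lines was not tested. RefSeq (GRCh38.p14) windows from 250 bases before to 50 bases after a transcription start were at hand for 4 of the members. There were 11, namely 4 for CFLAR, 3 for CASP8, 3 for FAS and 1 for FADD. None was at hand for TNFRSF10A, TNFRSF10B, TNFRSF10D and CASP10, so the promoters of those genes were not searched. The windows were searched on both strands for TGATGNAA, a composite site bound by ATF4 and C/EBP proteins, for the NF-kB consensus and for the p53 half-site. TGATGNAA was found in 3.62% of 35116 windows of all genes and in 0 of the 11. The NF-kB consensus was found in 5.91% of all windows and in 1 window each of CFLAR and FAS, and the p53 half-site in 6.63% and in 1 window each of FAS and CASP8. These are matches of letters and say nothing of binding. The window at chr2:201118466-201118765 of CFLAR (plus strand) and that at chr10:88991181-88991480 of FAS (plus strand) are printed with matches in capitals, the NF-kB consensus in both and, as the second run of capitals in FAS, the p53 half-site.
CFLAR: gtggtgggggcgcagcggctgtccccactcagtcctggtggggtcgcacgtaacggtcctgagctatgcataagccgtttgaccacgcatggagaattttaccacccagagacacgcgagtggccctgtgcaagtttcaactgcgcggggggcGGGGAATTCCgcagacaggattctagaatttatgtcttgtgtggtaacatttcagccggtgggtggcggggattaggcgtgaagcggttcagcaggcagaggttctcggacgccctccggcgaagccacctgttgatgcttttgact
FAS: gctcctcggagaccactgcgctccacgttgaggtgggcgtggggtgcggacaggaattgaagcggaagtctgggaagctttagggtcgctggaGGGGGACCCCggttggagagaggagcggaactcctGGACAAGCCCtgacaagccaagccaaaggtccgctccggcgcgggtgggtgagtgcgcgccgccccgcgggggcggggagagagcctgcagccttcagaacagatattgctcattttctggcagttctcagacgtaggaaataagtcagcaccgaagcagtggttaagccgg

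The members lie on 4 chromosomes, in GRCh38 coordinates of GENCODE v44. TNFRSF10A (ENSG00000104689, chr8:23190452-23225102), TNFRSF10D (ENSG00000173530, chr8:23135588-23164027) and TNFRSF10B (ENSG00000120889, chr8:23020133-23069031) are neighbours on the minus strand. CFLAR (ENSG00000003402, chr2:201116154-201176687), CASP10 (ENSG00000003400, chr2:201182872-201229428) and CASP8 (ENSG00000064012, chr2:201233443-201361836) follow each other on the plus strand. FAS (ENSG00000026103, chr10:88953813-89029605) and FADD (ENSG00000168040, chr11:70203296-70207390) lie on the plus strand elsewhere. Sequences of 31 bases shared with other annotated genes make up 13.4% of those of CFLAR and 6.86% of those of CASP8, and at most 4.57% for the other members, so reads of these genes could have been split with other genes. Several members, TNFRSF10B and CASP8 among them, overlap an antisense gene, and the sources used here do not state whether counting used the strand.

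**Figure D1:**
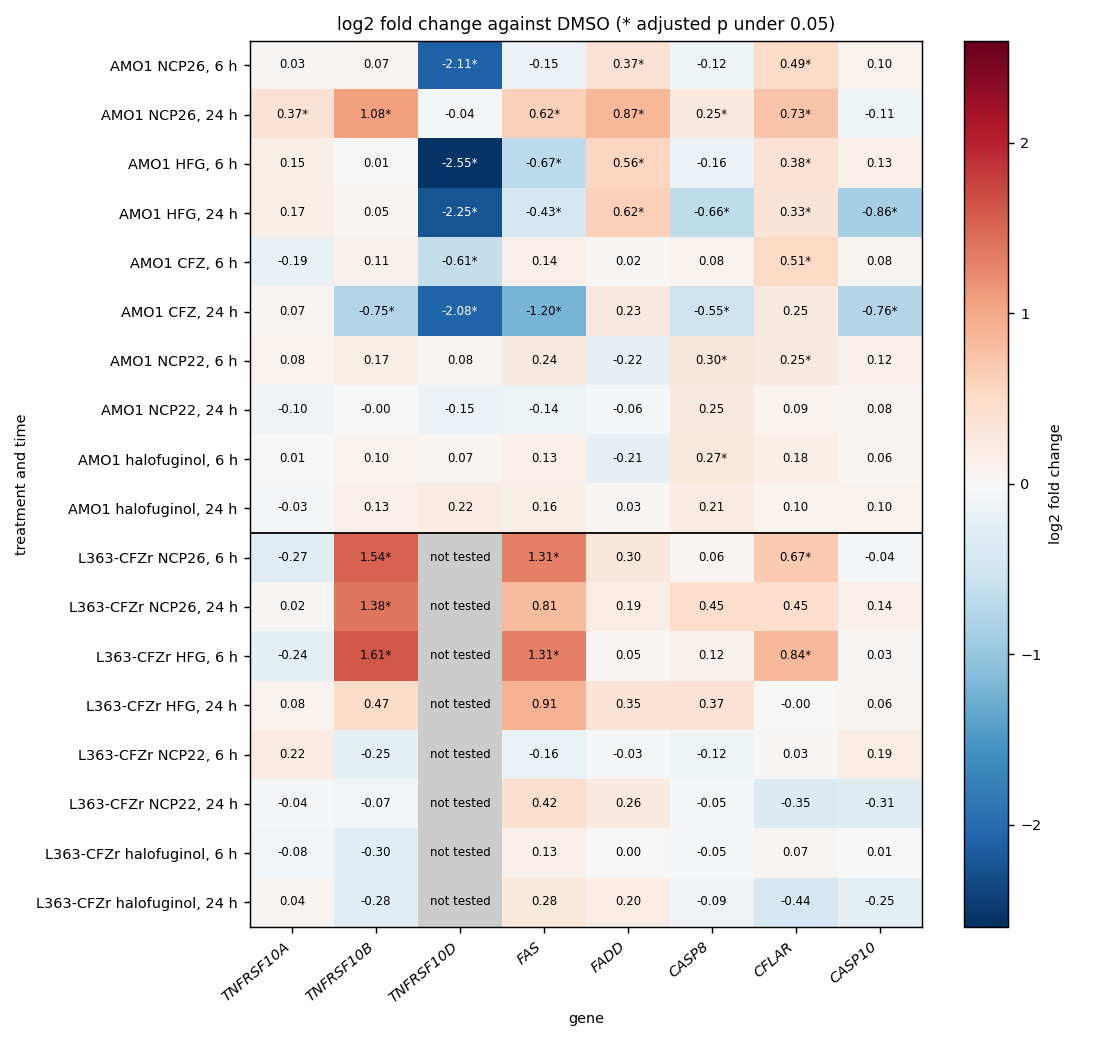
log2 fold change against DMSO (colour and number) of the 8 genes (columns) in the 18 comparisons with DMSO (rows), with an asterisk for an adjusted p under 0.05 and grey where a gene was not tested. The NCP22 and halofuginol rows stay between -0.44 and 0.42, while TNFRSF10D reaches -2.55 in AMO1 and TNFRSF10B 1.61 in L363-CFZr cells.

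The related compounds were compared directly at 1 µM. NCP26 against NCP22 in AMO1 cells gave 4 of 8 members at 6 h (24.7% of all genes called) and 5 of 8 at 24 h (52%). TNFRSF10D was 4.46-fold lower with NCP26 than with NCP22 at 6 h (log2 fold change -2.16, 95% interval -2.54 to -1.78, adjusted p = 7.36e-06), and at 24 h the difference was 0.13 (95% interval -0.05 to 0.31). FADD was higher with NCP26 at both times (log2 fold changes 0.62, adjusted p = 0.00273, and 0.95, adjusted p = 3.09e-05). At 6 h 2 members were called higher, FADD and CFLAR, and 2 lower, TNFRSF10D and 1 of FAS and CASP8. With NCP26 all libraries of FAS (group means 36.7 against 47.8 CPM) and of CASP8 (137.5 against 183 CPM) lay below those with NCP22. TNFRSF10B differed by -0.07 at 6 h (95% interval -0.25 to 0.12) and was 2.15-fold higher with NCP26 at 24 h (log2 fold change 1.10, adjusted p = 1.1e-07), in libraries of 1 set. FAS, TNFRSF10A and CFLAR were also higher at 24 h, by 0.78, 0.49 and 0.66 on the log2 scale (adjusted p = 7.62e-05, 0.00346 and 3.69e-05).

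In L363-CFZr cells NCP26 and NCP22 differed in 4 of 7 members at 6 h (20.4% of all genes) and 4 of 7 at 24 h (34.1%). TNFRSF10B was higher with NCP26 by 1.78 at 6 h (95% interval 1.53 to 2.03, adjusted p = 2.07e-06) and by 1.45 at 24 h (95% interval 1.25 to 1.64, adjusted p = 3.76e-08). FAS was higher by 1.46 at 6 h (adjusted p = 0.00931), and CFLAR was also called higher at that time. TNFRSF10A was lower with NCP26 by 0.49 at 6 h (log2 fold change -0.49, adjusted p = 0.0166), a call lost without NCP22 replicate 2 or 3 (adjusted p = 0.0557 and 0.0744). At 24 h, where neither group includes the DMSO library that stood apart, CFLAR (0.79), CASP8 (0.49) and CASP10 (0.43) were higher with NCP26 (adjusted p = 7.53e-06, 0.000404 and 0.00363).

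HFG against halofuginol, the pair that differs by ketone and alcohol, gave 5 of 8 members in AMO1 cells at 6 h (51.7% of all genes) and 6 of 8 at 24 h (56.6%). TNFRSF10D was lower with HFG at both times (log2 fold changes -2.62, 95% interval -2.93 to -2.32, and -2.46, 95% interval -2.72 to -2.19). CASP8 was lower at both times (-0.43 and -0.86) and CASP10 at 24 h (-0.94, adjusted p = 2.08e-08), while the CASP10 difference at 6 h was 0.07 (95% interval -0.08 to 0.23). FAS was lower with HFG (-0.80 and -0.58) and FADD higher (0.76 and 0.61). CFLAR was also called higher with HFG at both times. TNFRSF10B differed by -0.10 at 6 h (95% interval -0.24 to 0.05) and by -0.07 at 24 h (95% interval -0.23 to 0.09). In L363-CFZr cells the pair differed in 4 of 7 members at 6 h (47.3% of all genes) and 4 of 7 at 24 h (21.9%), and there TNFRSF10B was higher with HFG by 1.91 at 6 h (95% interval 1.74 to 2.08, adjusted p = 8.84e-18) and by 0.75 at 24 h (95% interval 0.56 to 0.94, adjusted p = 2.07e-05). At 6 h FAS, CASP8 and CFLAR were also called higher with HFG, and DESeq2 called 3 members in place of 4. At 24 h CASP8, CFLAR and CASP10 were higher with HFG by 0.45, 0.44 and 0.31, the last with an adjusted p = 0.00833 in edgeR and 0.0721 in DESeq2. These pairs at 24 h do not share the L363-CFZr DMSO library that stood apart.

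**Figure D2:**
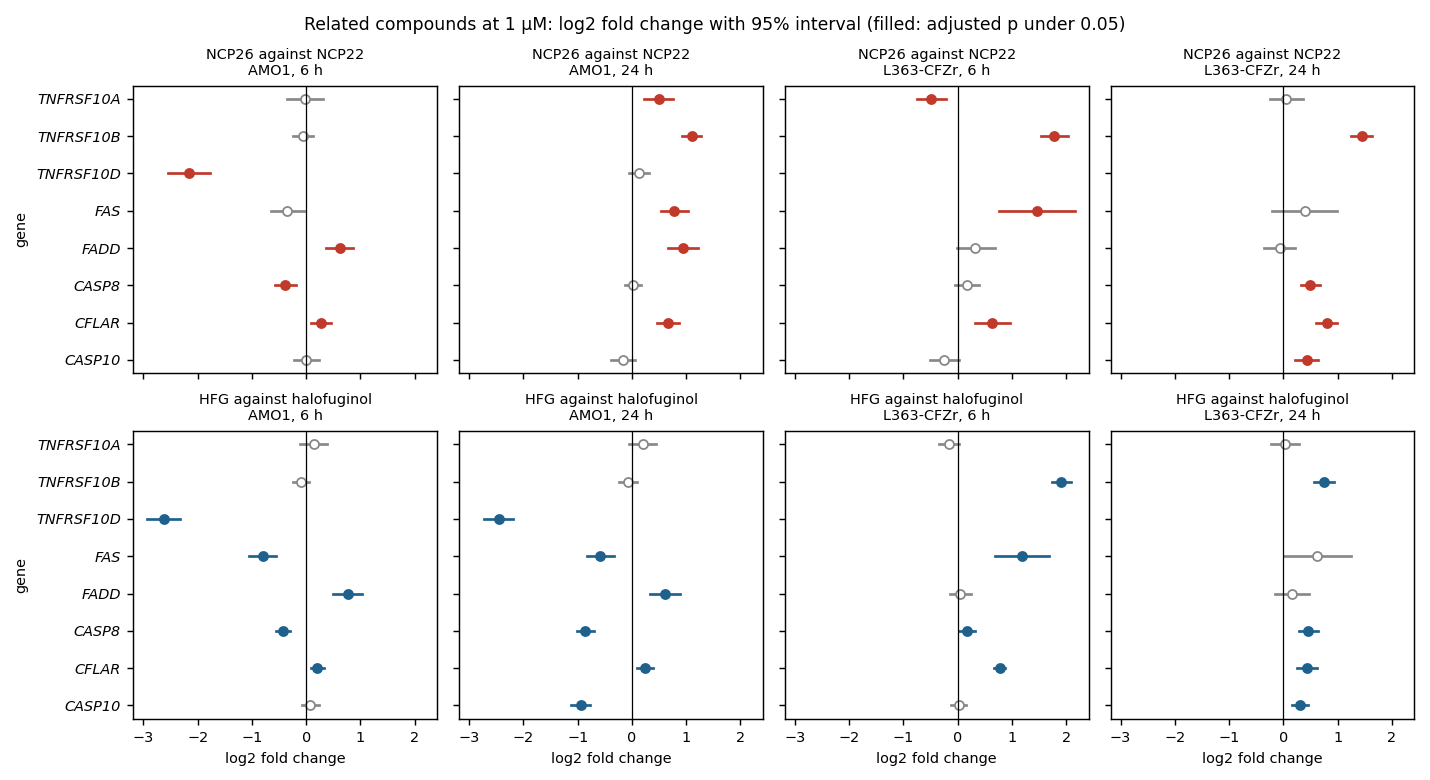
log2 fold change (points) with 95% interval (lines) of each member for NCP26 against NCP22 (upper row) and HFG against halofuginol (lower row), by cell line and time, with filled points for an adjusted p under 0.05. TNFRSF10D lies near -2.16 and -2.62 in AMO1 cells at 6 h, and TNFRSF10B near 1.78 and 1.91 in L363-CFZr cells at 6 h.

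NCP26 and HFG, unlike in structure, were compared in library sets where that was possible. In AMO1 cells at 24 h TNFRSF10B (1.02), FAS (1.04), CASP8 (0.89), CASP10 (0.74) and CFLAR (0.39) were higher with NCP26 on the log2 scale, in addition to TNFRSF10D, with adjusted p-values from 3.87e-11 to 1.3e-05 over these 6 genes. The difference in FADD was 0.24 (95% interval -0.01 to 0.48). In L363-CFZr cells at 24 h 2 of 7 members were called against 12.9% of all genes, TNFRSF10B (0.91, adjusted p = 5.52e-06) and CFLAR (0.45, adjusted p = 0.00155). The difference in CASP8 was 0.08 (95% interval -0.10 to 0.25) and that in CASP10 0.07 (95% interval -0.09 to 0.23).

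Under DMSO the lines differed in 7 of 8 members at 6 h (60.2% of all genes called) and 5 of 8 at 24 h (39.9%), TNFRSF10D included. TNFRSF10D had 0 counts in the L363-CFZr DMSO libraries and had enough counts to be tested only through AMO1 cells. Its calls at both times were thus fixed beforehand and carry no weight in these counts. FAS was 11.6-fold lower in L363-CFZr than in AMO1 cells at 6 h (log2 fold change -3.53, adjusted p = 1.72e-12) and 12.4-fold lower at 24 h (log2 fold change -3.63, adjusted p = 3.22e-05). TNFRSF10B was 3.41-fold and 3.03-fold lower (adjusted p = 1.28e-12 and 0.000118), and CASP8 1.92-fold and 1.89-fold lower (adjusted p = 2.06e-08 and 0.0006). TNFRSF10A was higher in L363-CFZr cells at 6 h (1.52-fold, adjusted p = 0.000414) and differed by 0.03 at 24 h (95% interval -0.25 to 0.31). CFLAR differed by -0.79 at 6 h (adjusted p = 6.48e-08) and by -0.11 at 24 h (adjusted p = 0.771), the latter -0.47 without L363-CFZr DMSO 24 h replicate 2 (adjusted p = 1.69e-06). FADD differed by 0.14 at 24 h (adjusted p = 0.658), and by 0.35 without that library (adjusted p = 0.0248). Line and library set cannot be told apart here.

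The other genes of the pathway were taken from a list of 35 (ligands, other receptors, adaptors and complex members, and downstream caspases with their regulators), of which 25 to 28 had enough counts to be tested. With NCP26 in AMO1 cells 8 rose and 3 fell of 27 tested at 6 h, where 18.1% of all genes rose and 19.2% fell. At 24 h 11 rose and 8 fell of 28 (29.8% and 30.9% of all genes). With HFG 10 rose and 5 fell of 27 at 6 h (27.7% and 26.6%), and 11 rose and 6 fell of 28 at 24 h (28.5% and 30.5%). With CFZ 5 rose and 1 fell of 26 at 6 h (14.1% and 12.8%), and 1 rose and 1 fell of 27 at 24 h (13.1% and 14%). Median log2 fold changes of the list in these comparisons ran from -0.02 to 0.24, beside -0.01 to 0.01 over all genes. In L363-CFZr cells 6 rose and 1 fell of 27 with NCP26 at 6 h (9.81% and 8.99%), and 2 rose and 0 fell of 26 at 24 h (2.71% and 4.38%). With HFG 12 rose and 4 fell of 26 at 6 h (26.9% and 27.5%), and 1 rose and 0 fell of 25 at 24 h (0.592% and 0.573%). TNFSF10, which encodes TRAIL, had group means of at most 3.20 CPM and FASLG, which encodes FAS ligand, of at most 0.206 CPM.

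PEA15, a death effector domain protein that binds FADD and CASP8, rose in AMO1 cells at 6 h with NCP26 (2.18-fold, log2 fold change 1.12, adjusted p = 1.06e-05), HFG (2.42-fold, log2 fold change 1.28, adjusted p = 2.41e-09) and CFZ (1.71-fold, log2 fold change 0.78, adjusted p = 3.51e-08). CASP6, an executioner caspase, rose 2.2-fold with NCP26 at 6 h (adjusted p = 0.00032). MLKL, the effector of necroptosis, fell at both times with NCP26 (log2 fold changes -1.14 and -2.81, adjusted p = 0.00825 and 1.93e-07) and HFG (-1.01 and -1.35, adjusted p = 0.0025 and 0.00251), from group means of 10.1 CPM (6 h) and 8.32 CPM (24 h) with DMSO. LTA, a ligand of TNF receptors, rose at 24 h with NCP26 and HFG (log2 fold changes 2.20 and 3.26, adjusted p = 0.000188 and 3.65e-06) and TNFRSF21 (DR6) fell (-1.80 and -2.36, adjusted p = 0.000309 and 0.000706), all at group means below 8 CPM. At 24 h in AMO1 cells 0 ligands had enough counts to be tested with CFZ, NCP22 or halofuginol against DMSO. LTA was thus tested only through the groups in which it was high, so its calls were largely set by the filter on counts. In AMO1 NCP26 against HFG at 24 h, 1 of the 5 other receptors and 13 of the 14 adaptors and complex members were tested. With each compound against DMSO these were 2 and 14. TNFRSF21 and MLKL may thus have been tested at 24 h only through the DMSO libraries, in which they were higher. Their falls at 24 h may then also have been set in part by the filter. With CFZ, TNFRSF1A (0.80, adjusted p = 0.023) and BID (0.45, adjusted p = 0.00118) rose at 6 h, and at 24 h CUL3 fell (-0.68, adjusted p = 0.00233) and DFFA rose (0.49, adjusted p = 0.0127).

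In L363-CFZr cells TNFRSF1A, the main TNF receptor, rose with NCP26 at 6 h and 24 h (log2 fold changes 1.18 and 1.10, adjusted p = 0.00158 and 0.024), and HFG raised it at 6 h (0.94, adjusted p = 0.000182). RBCK1, a subunit of the linear ubiquitin ligase, rose with NCP26 at both times (0.83 and 1.52, adjusted p = 0.00289 and 0.00116), and HFG raised it at 24 h (0.99, adjusted p = 0.0108). CYLD, a deubiquitinase that acts on these complexes, rose at 6 h with NCP26 (0.73, adjusted p = 0.00336) and HFG (1.04, adjusted p = 2.86e-09), as it did with HFG in AMO1 cells (1.04, adjusted p = 1.16e-07). XIAP, an inhibitor of caspases, rose with HFG at 6 h (0.87, adjusted p = 3.58e-06).

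Genes of the integrated stress response and of p53, 6 in number, stood beside the members as follows for NCP26, HFG and CFZ. With NCP22 at 6 h in AMO1 cells 3 of the 6 were called higher and 1 lower (13.5% of all genes called). With halofuginol at 6 h 2 were higher in AMO1 cells (3.62%), and 1 higher and 4 lower in L363-CFZr cells (25.8%). In the other comparisons of these 2 compounds with DMSO 0 were called. Their values are not given here. DDIT3, the transcription factor CHOP, rose in AMO1 cells with NCP26 at 6 h and 24 h (log2 fold changes 1.86 and 2.08), HFG (1.79 and 1.49) and CFZ at 6 h (1.69), and its value with CFZ at 24 h was 0.00 (adjusted p = 0.995). TNFRSF10B rose in only 1 of these 5 groups with higher DDIT3, NCP26 at 24 h. In L363-CFZr cells DDIT3 rose with NCP26 (2.02 and 2.42) and with HFG at 6 h (1.67), and had 1.41 with HFG at 24 h (adjusted p = 0.0664). With all libraries TNFRSF10B was called higher in the same 3 groups. Without DMSO 24 h replicate 2 it was also called with HFG at 24 h, as given above, and DDIT3 was not taken without that library. Whether DDIT3 sets the level of TNFRSF10B was not tested. ATF3 and TRIB3, both stress response genes, were called higher in each of these groups with DDIT3 calls (ATF3 from 2.24 to 4.09 and TRIB3 from 1.12 to 3.09), and ATF4 ran from -0.36 (AMO1, NCP26 at 24 h) to 1.07 (L363-CFZr, NCP26 at 24 h).

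CDKN1A, the p53 target p21, fell in AMO1 cells with NCP26 (-2.61 and -0.34), HFG (-2.77 and -2.19) and CFZ at 24 h (-1.43), and rose with CFZ at 6 h (0.80, adjusted p = 3.75e-09). MDM2, which encodes the ligase that degrades p53 and is itself a p53 target, fell with NCP26 at 6 h (-1.13), HFG (-0.96 and -1.24) and CFZ at 24 h (-1.15), and had -0.08 with NCP26 at 24 h (adjusted p = 0.0922) and 0.02 with CFZ at 6 h (adjusted p = 0.854). TNFRSF10D was called lower in each of the 4 groups in which MDM2 was, and also with CFZ at 6 h. In L363-CFZr cells CDKN1A rose with NCP26 (1.17 and 1.18) and with HFG at 6 h (0.97), and MDM2 with HFG at 6 h (0.63, adjusted p = 7.66e-06).

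The genes whose group means followed each member most closely were ranked by Pearson correlation of mean log2 CPM over the 22 groups, centred within each line, among 10024 genes. These are descriptions without a test, over groups that share library sets and times. TNFRSF10D was followed by ZMAT3 (r = 0.966), HNRNPUL2 (0.925) and MDM2 (0.911), a pattern set by the 12 AMO1 groups since TNFRSF10D is near 0 in the other line. TNFRSF10B was followed by GDF15 (0.948), a stress-induced cytokine, SLC38A1 (0.918), a glutamine transporter, and NCOA7 (0.909). FAS was followed by BBC3 (0.882), HSPA13 (0.869) and GDF15 (0.855), CFLAR by BEST1 (0.933), TNRC18 (0.917) and ZNF770 (0.907), and FADD by H3-3B (0.924), TMEM199 (0.908) and PEA15 (0.908). CASP8 was followed by CAPG (0.876), CFAP68 (0.858) and ALOX5AP (0.834), TNFRSF10A by GNB1 (0.863), MLX (0.84) and NADK (0.836), and CASP10 by CYTH1, RAB37 and N4BP2L1 (each 0.849). Between members the highest correlations were those of TNFRSF10B with FAS (0.843) and with CFLAR (0.733), and of TNFRSF10D with CASP10 (0.705), and the lowest was that of TNFRSF10D with FADD (-0.548).

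**Figure D3:**
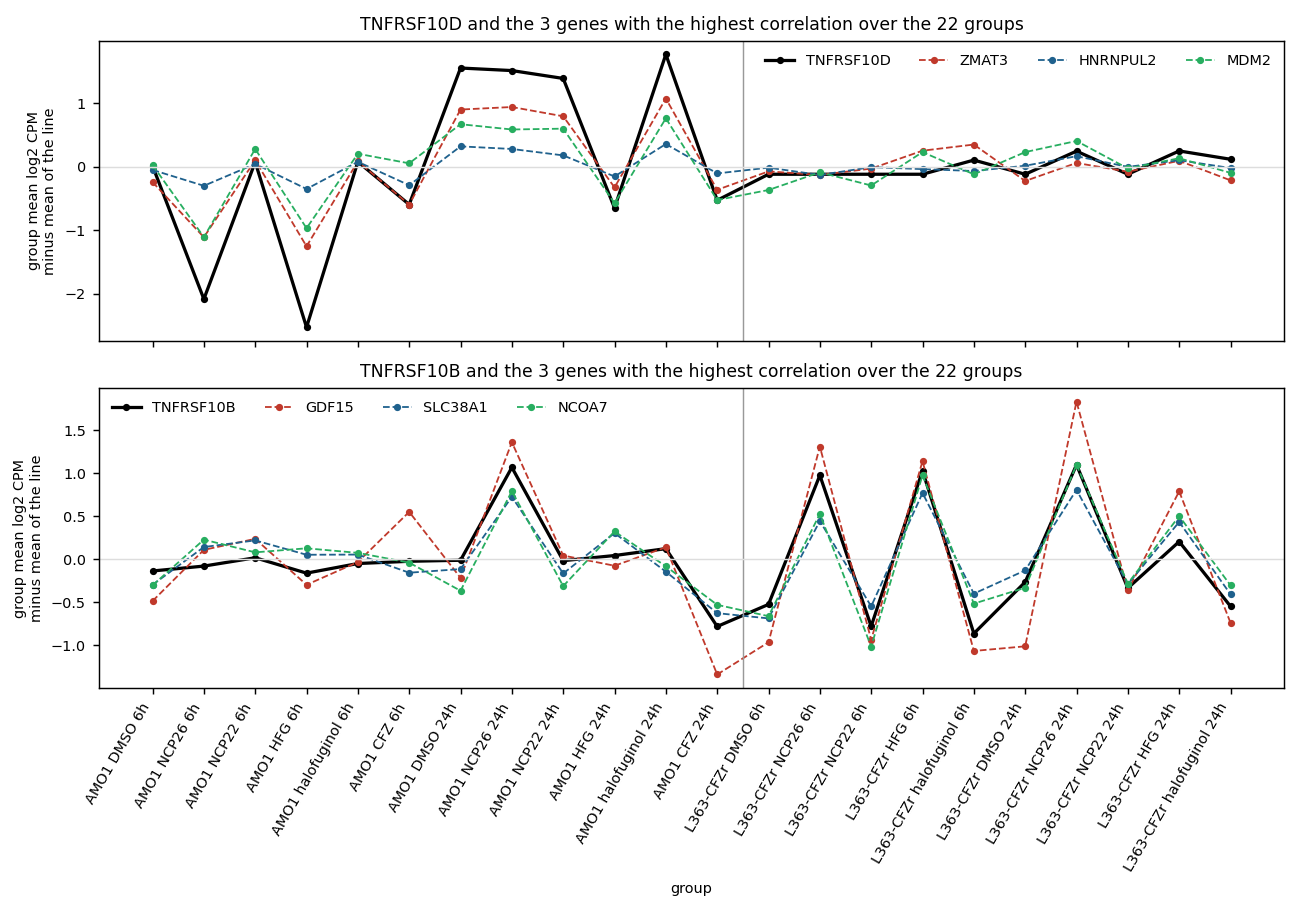
Group mean log2 CPM minus the mean of the cell line (vertical axis) over the 22 groups (horizontal axis) for TNFRSF10D and TNFRSF10B (black) and the 3 genes most correlated with each (dashed). TNFRSF10D and its 3 genes fall with NCP26 and HFG at 6 h in AMO1 cells, and TNFRSF10B, GDF15, SLC38A1 and NCOA7 peak with NCP26 at 24 h in AMO1 cells and with NCP26 and HFG in L363-CFZr cells.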

How the data were processed

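RNA of 66 samples was measured, in 22 groups of 3. The authors selected polyadenylated RNA, made directional libraries, sequenced them on a NextSeq 500 and assigned reads with kallisto. The submitters' notes name hg19 and the study's methods GRCh38. The kallisto version, annotation and strand setting were not given in the sources used here. What the authors deposited are whole-number counts for each gene without normalization. Positions and shared 31-mers were taken from GENCODE v44, which holds 19299 of the 20167 identifiers.

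The 8 genes, gene lists and rules were chosen with earlier results of these data known. Counts were fitted in R 4.3.3 with edgeR 4.0.16: filterByExpr (count at least 10, total at least 15), TMM, quasi-likelihood F test, Benjamini-Hochberg over all genes tested, 0.05. Only the groups compared entered a fit. SE was taken as the size of the log2 fold change over the square root of F. There were 39 comparisons, 6 of them interactions, and the 2 of DMSO between times were added after values were seen. Text names all members, the 3 wider pathway genes of largest called change in each comparison with DMSO (NCP26, HFG, CFZ), 6 stress and p53 genes, and the 3 genes most like each member. FASLG and TNFSF10 were named after their values were seen. Replicates were compared in 66 pairs, of which 0 were identical (lowest correlation of log2 CPM 0.9382). Alternatives were DESeq2 1.42.0 (size factors or Wald test), no filter, wider fits, each library left out, a replicate block, a GC offset (lowess span 0.3) and a library set term. The set term is estimated in AMO1 from CFZ 24 h libraries and in L363-CFZr from NCP22 6 h libraries. CFZ 24 h replicate 2, which stood apart, is among the former. The tests were tried on simulated data. Figures used matplotlib 3.10.9.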

Additional observations from a re-analysis of the deposited data

Results flagged for a closer look

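Effects that differed between the lines or between times, by an interaction term in edgeR (adjusted p under 0.05), are listed here as differences of log2 fold changes. The NCP26 effect at 6 h was larger in L363-CFZr than in AMO1 cells for TNFRSF10B (1.45) and FAS (1.43). The HFG effect at 24 h was higher in L363-CFZr than in AMO1 cells for FAS (1.32), CASP8 (1.02) and CASP10 (0.92). Each of these comparisons of lines is also one of library sets, and the part of the sets was not tested.

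In AMO1 cells the NCP26 effect was higher at 24 h than at 6 h for TNFRSF10D (2.07), TNFRSF10B (1.00), FAS (0.76), FADD (0.50) and CASP8 (0.36). The FADD and CASP8 differences had adjusted p = 0.0449 and 0.0413 and were lost by DESeq2 (adjusted p = 0.166 and 0.0674). The HFG effect was lower at 24 h for CASP8 (-0.47) and CASP10 (-0.96). The CFZ effect was lower at 24 h for TNFRSF10D (-1.49), FAS (-1.36), TNFRSF10B (-0.88), CASP10 (-0.86) and CASP8 (-0.64). Time cannot be told apart from the storage of samples.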

How the results depend on the processing

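Calls were recomputed for the 8 members in all 39 comparisons. Shares of all genes called under these settings are not given here. With DESeq2 size factors all 293 gene results kept their direction and side of the threshold. Counts of members called moved by over 1.5 times as follows. DESeq2's Wald test gave 2 for L363-CFZr NCP26 at 24 h (1 in edgeR) and 3 for the AMO1 NCP26 effect between times (5). The GC offset gave 5 for AMO1 NCP26 at 6 h (3), 0 for AMO1 NCP22 at 6 h (2), 0 for AMO1 halofuginol at 6 h (1) and 1 for L363-CFZr DMSO between times (2). With all groups of a line in one fit the counts were 1 for AMO1 NCP22 at 6 h (2), 0 for AMO1 halofuginol at 6 h (1), 4 for L363-CFZr NCP26 at 24 h (1), 3 for L363-CFZr HFG at 24 h (0), 1 for AMO1 NCP26 against HFG at 6 h (0), 1 for L363-CFZr NCP26 against HFG at 24 h (2) and 2 for L363-CFZr HFG against halofuginol at 24 h (4). With all groups in one fit, the difference between lines at 24 h had 1 call for NCP26 (0) and 5 for HFG (3). The library set term gave 3 for AMO1 NCP26 at 24 h (6) and 1 for L363-CFZr HFG at 6 h (3). Without a filter 1 member was called for L363-CFZr halofuginol at 6 h (0) and 1 for AMO1 NCP26 against HFG at 6 h (0). The cause was not tested.

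Leaving out 1 library gave 3 to 5 calls for AMO1 CFZ at 24 h, 0 to 2 for AMO1 NCP22 at 6 h, 0 to 1 for AMO1 halofuginol at 6 h, 1 to 4 for L363-CFZr NCP26 at 24 h, 0 to 4 for L363-CFZr HFG at 24 h, 0 to 1 for L363-CFZr halofuginol at 6 h, 2 to 4 for NCP26 against NCP22 at 6 h in both lines, 1 to 2 for the NCP26 difference between lines at 6 h and 0 to 3 at 24 h, 3 to 4 for the AMO1 NCP26 effect between times, 2 to 4 for AMO1 DMSO and 0 to 2 for L363-CFZr DMSO between times. CFLAR with HFG at 24 h in L363-CFZr cells turned from -0.0016 to 0.35 (adjusted p = 0.000966) without DMSO replicate 2, and was -0.17 without DMSO replicate 1, the lowest value with a library left out.

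Samples that share a replicate number did not deviate together (all 3 correlations over 0.1 in 0 of 33 comparisons), so the numbers were not taken as pairs. With the replicate block 1 member was called for L363-CFZr halofuginol at 6 h (0 without it) and 3 for the AMO1 NCP26 effect between times (5), and no other count moved by over 1.5 times. Depth limits FAS and TNFRSF10D in L363-CFZr cells most.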

Other observations

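In DMSO-treated L363-CFZr cells TNFRSF10A was lower at 24 h than at 6 h (log2 fold change -0.65, adjusted p = 0.0264) and CFLAR higher (0.91, adjusted p = 0.0471), 2 members called against 14.8% of all genes. In AMO1 cells under DMSO FADD was lower at 24 h (-0.36, adjusted p = 0.0362) and CFLAR higher (0.25, adjusted p = 0.0113). These comparisons were chosen after the values were seen. Left out one at a time, some libraries ended each of these 4 calls: for FADD the largest adjusted p was 0.142 (without DMSO 6 h replicate 3), for CFLAR in AMO1 cells 0.0809 (without DMSO 24 h replicate 1), for TNFRSF10A 0.119 (without DMSO 6 h replicate 1) and for CFLAR in L363-CFZr cells 0.174 (without DMSO 6 h replicate 3). Without L363-CFZr DMSO 24 h replicate 2 the CFLAR value was 0.56 (adjusted p = 5.24e-05).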
